A study of Mus musculus with 6 samples.

Results

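Acod1 and 8 genes grouped as enzymes of the tricarboxylic acid (TCA) cycle were followed through the RNA-seq of bone marrow-derived macrophages (BMDMs). The 9 genes, Acod1, Cs, Idh1, Idh2, Idh3a, Sdha, Sdhb, Fh1 and Mdh2, were taken by symbol out of 54446 gene IDs in the count table. All 9 had at least 10 counts in every library, so none was lost to the minimum of 10 counts. The marrow came from male BALB/c mice of 6 to 8 weeks and was cultured for 7 days with 20% L929-conditioned medium, a source of the growth factor CSF-1. M0 cells received no polarizing agent, while M1 cells had 24 hours of LPS at 50 ng/mL plus IFN-γ at 20 ng/mL, and M2 cells had 24 hours of IL4, also at 20 ng/mL. Each state was sequenced without and with regorafenib, a multikinase inhibitor that was given at 1 µM, in M1 and M2 1 hour ahead of the polarizing agents, and the control received DMSO. The length of exposure in M0 is not given in the sources used here. There was 1 library per condition, 6 in all, and whether marrow of several animals was pooled is not given in the sources used here. No difference between a pair of libraries therefore has a replicate check. The interval given with each ratio below covers counting error only.

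The TCA cycle oxidizes acetyl units in mitochondria. Citrate synthase (Cs) opens it, isocitrate dehydrogenases (Idh) turn isocitrate into α-ketoglutarate, succinate dehydrogenase (Sdh) oxidizes succinate, fumarase (Fh1) makes malate, and malate dehydrogenase (Mdh2) returns it to oxaloacetate. Of the Idh genes here, Idh1 encodes a cytosolic enzyme outside the mitochondrial cycle, but it is counted among the 8 TCA enzymes throughout. Acod1, also called Irg1, decarboxylates cis-aconitate, an intermediate between citrate and isocitrate, to itaconate. Itaconate inhibits succinate dehydrogenase, and macrophages stimulated with LPS and IFN-γ are known for a cycle interrupted at isocitrate dehydrogenase and at succinate dehydrogenase, with high itaconate and succinate.

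The libraries held 25359309 to 34898342 counts. The states carried their markers, with Arg1 less clear-cut. Nos2, the inducible nitric oxide synthase of M1 cells, had 410649 and 221627 counts in the M1 libraries and 39 to 50 elsewhere. Retnla, an IL4 target, had 941 and 3348 in the M2 libraries and at most 2 elsewhere. Arg1, a marker of M2 cells, had 21798 and 1017 counts in M2, 851 and 114 in M1, then 3 and 2 in M0. Its level in M2 with regorafenib was near that of the M1 control. All 7 macrophage markers were present, at a summed level of 20101 to 45650 CPM (counts scaled to a common library size). The summed level was 84.8 to 158 CPM for 6 neutrophil markers (Ly6g at 0 throughout), 3.06 to 9.80 for 4 fibroblast markers, 0.394 to 4.52 for 5 dendritic cell markers and 0.0548 to 4.44 for 3 mast cell markers (Cpa3 and Mcpt4 at 0). The 3 lymphocyte markers had at most 0.107 CPM. The macrophage, neutrophil and fibroblast sums were all highest in M0 with regorafenib. There, Lyz2 alone held 42740.5 of the 45650.2 CPM for macrophages, and Mpo held 155 of the 158 CPM for neutrophils. Of the 7 macrophage markers, 3 were higher and 3 lower with regorafenib in M0 beyond counting error. Of the 2 neutrophil markers past the minimum, 1 was higher and 1 lower, and of 3 fibroblast markers 2 were higher and 0 lower. The part of these markers in the results was not tested. In bulk RNA, fewer cells of a type and less RNA per cell cannot be told apart.

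Acod1 (ENSMUSG00000022126.6, chr14:103046977-103056573 on the + strand of GRCm38) was the member with the widest range. It had 1085 counts in the M0 control and 642 in M0 with regorafenib, 163628 and 151364 in M1, then 150 and 549 in M2. Scaled by the trimmed mean of M values (TMM), the levels were 35.3 and 19.5 CPM in M0, 6333 and 6280 in M1, then 4.11 and 19.6 in M2. Both M1 libraries lay far above the other 4, and the M2 control was the lowest. Per kilobase of exon, Acod1 ranked 16 among all genes in both M1 libraries, 3390 in the M0 control and 9764 in the M2 control. It held 0.519% of all counts in the M1 control (exact binomial 95% interval 0.517% to 0.522%), against 0.0794% for the 8 TCA enzymes together. The level of Acod1 per kilobase was 9.32 and 8.07 times the summed level of the 8 enzymes in the M1 libraries, 0.0392 and 0.0194 times in M0, then 0.00377 and 0.0180 times in M2.

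The sequence upstream of the Acod1 start is shown because this gene carried the largest polarization difference among the 9. It is the RefSeq promoter window of GRCm38.p6 up to the base before the Gencode start, chr14:103046762-103046976, + strand, 5′ to 3′, and the capitals mark GGAAATTCC, a κB-like run of letters that was chosen after the window had been read:

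Acod1: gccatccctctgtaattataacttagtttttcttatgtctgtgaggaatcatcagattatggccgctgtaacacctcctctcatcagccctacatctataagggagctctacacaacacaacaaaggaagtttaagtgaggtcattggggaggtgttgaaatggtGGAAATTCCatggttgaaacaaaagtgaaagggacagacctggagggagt

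These 9 letters began 50 bases before the end of the printed stretch. They occur in 104 of 32851 RefSeq promoter windows (0.317%) and in no other member with a window. Since the letters were chosen from the Acod1 window, their presence in it was set in advance. The share therefore does not measure how unusual the match is. The longer κB form, GGGA and TTCC with 2 free bases between them, was in none of the members' windows and in 1.47% of all windows, searched on both strands. The GAS form TTCNNNGAA (8.30% of all windows), the IRF form, GAAA and GAAA with 2 free bases between them (3.44%), the AP-1 form TGANTCA (7.81%), the ERR form TCAAGGTCA (0.423%) and the GABP form CCGGAAGT (3.89%) were in none of them either. A match is a description of letters only. No window was matched for Idh3a, and the other 8 members had 9 windows.

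**Figure D1:**
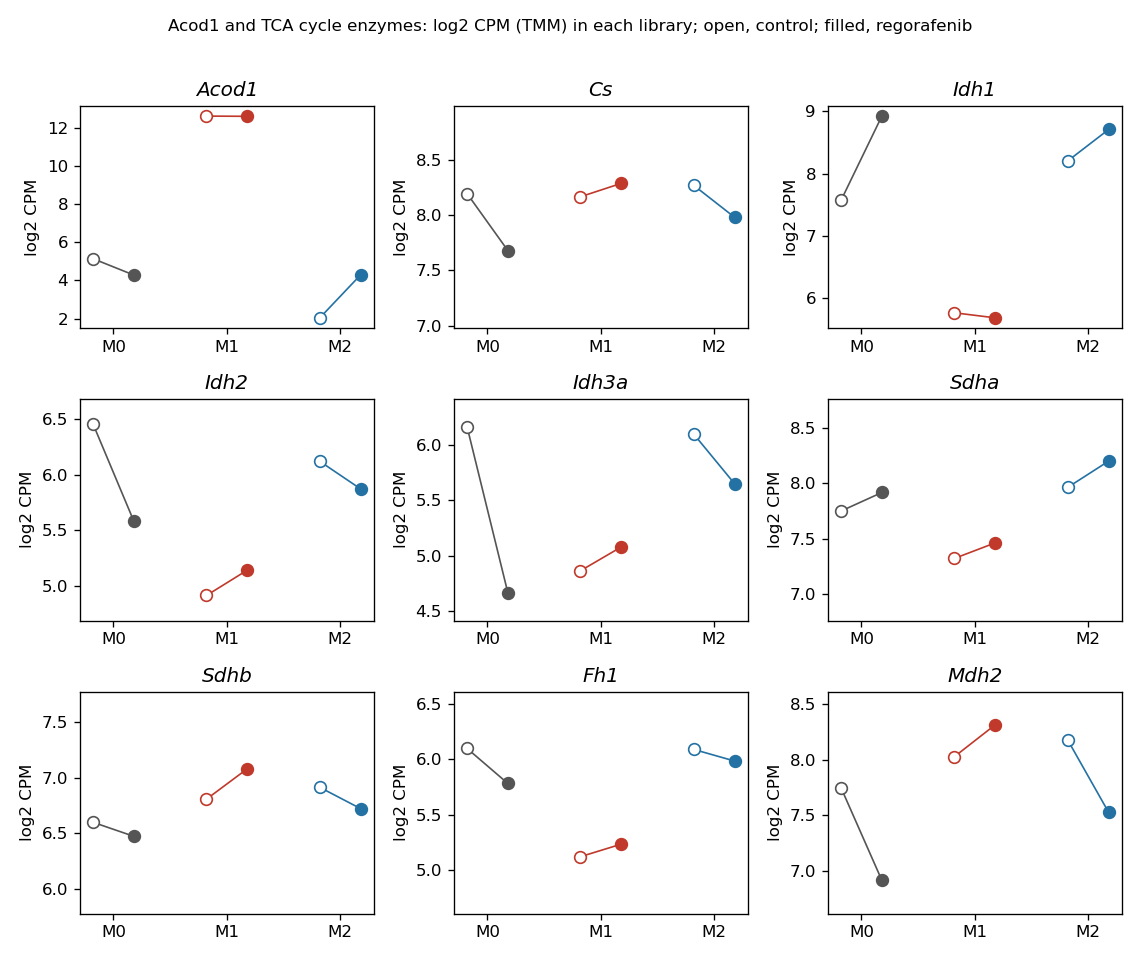
Level of each gene in each library, as log2 CPM after TMM scaling, by state, with open points for control and filled points for regorafenib, 1 library per point; each panel has its own vertical range. Acod1 was at 6333 and 6280 CPM in the M1 libraries and at most 35.3 CPM elsewhere, whereas Idh1, Idh2 and Fh1 were lower in both M1 libraries than in the other 4.

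Citrate synthase, Cs, had 8990 and 6758 counts in M0, 7413 and 7518 in M1, then 11244 and 7058 in M2, control before regorafenib in each state. Its levels, 205 to 312 CPM, spanned a narrow range with M0 under regorafenib as the lowest. The isocitrate dehydrogenases spanned more. Idh1, the cytosolic NADP-dependent enzyme, had 5843 and 16034 counts in M0, 1403 and 1237 in M1, then 10779 and 11718 in M2. The M1 libraries were the lowest for Idh1 and M0 with regorafenib was the highest. Idh2, its mitochondrial NADP-dependent counterpart, had 2699 and 1578 counts in M0, 778 and 850 in M1, then 2541 and 1639 in M2. Idh3a, which encodes the α subunit of the NAD-dependent enzyme of the cycle itself, had 2199 and 836 counts in M0, 752 and 814 in M1, then 2494 and 1402 in M2. For Idh3a the lowest level was in M0 with regorafenib, below both M1 libraries.

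Past isocitrate the levels differed less. Sdha, the flavoprotein of succinate dehydrogenase, had 6602 and 7954 counts in M0, 4130 and 4246 in M1, then 9099 and 8211 in M2. Sdhb, its iron-sulfur subunit, had 2979 and 2929 counts in M0, 2895 and 3265 in M1, then 4405 and 2955 in M2. Sdha was lowest in M1 and Sdhb was highest in M1 with regorafenib. Fh1 had 2104 and 1814 counts in M0, 900 and 908 in M1, then 2485 and 1771 in M2, with the M1 libraries below the other 4. Mdh2 had 6601 and 3974 counts in M0, 6746 and 7678 in M1, then 10565 and 5158 in M2, and its lowest level was M0 with regorafenib. When the 6 levels of each gene were put in order, 7 of 45 pairs of neighbours did not differ beyond counting error. These included Acod1 in M2 and M0 with regorafenib, Idh1 in the M1 libraries, and Idh3a and Fh1 in the M0 and M2 controls.

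Between the M1 and M0 control libraries, Acod1 was higher, the 3 isocitrate dehydrogenases and fumarase were lower, and Cs, Sdhb and Mdh2 were close to M0. Acod1 was 179-fold higher in M1 than in M0 (log2 ratio 7.49, 95% counting interval 7.40 to 7.57). Idh1 was 3.50-fold lower (log2 ratio −1.81, −1.89 to −1.72), Idh2 2.92-fold lower (−1.54, −1.66 to −1.43) and Idh3a 2.46-fold lower (−1.30, −1.42 to −1.18). Fh1 lay just inside 2-fold, at −0.98 (−1.09 to −0.86), and past it at −1.42 when scaled by total counts. That scaling made 5 calls among the members and called 41.8% of all genes, whose median it moved to −0.49. Sdha was at −0.43 (−0.48 to −0.37). The log2 ratio was −0.03 (−0.07 to 0.02) for Cs, 0.21 (0.13 to 0.28) for Sdhb and 0.28 (0.23 to 0.33) for Mdh2, and all 3 were below 0 when scaled by total counts, while Cs was at 0.02 with the size factors of DESeq2. With a call at 2-fold or more, 4 of the 9 members were called, 1 higher and 3 lower, while 37.1% of the 14168 genes tested were called (17.4% higher, 19.7% lower). The median of the 8 TCA enzymes was −0.70, against −0.05 over all genes tested. Among markers of other cell types, S100a8 (123 to 1804 counts), Xcr1 (0 to 36), Dcn (4 to 100) and Kit (8 to 35) were called higher. Mpo, Zbtb46, Col1a1 and Col1a2 were not called, and no such marker was called lower. The part of these markers in the ratios was not tested.

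With regorafenib in both libraries, the difference between M1 and M0 was 322-fold for Acod1 (log2 ratio 8.33, 8.22 to 8.45) and −3.24 (−3.33 to −3.16) for Idh1, which was 9.48-fold lower. Mdh2 was 2.64-fold higher in M1, at 1.40 (1.35 to 1.46). Idh2 was at −0.44 (−0.56 to −0.32), Fh1 at −0.55 (−0.66 to −0.43) and Sdha at −0.45 (−0.51 to −0.40). Idh3a was at 0.41 (0.27 to 0.55), Cs at 0.61 (0.56 to 0.65) and Sdhb at 0.61 (0.54 to 0.68). Here 3 of 9 members were called, 2 higher and 1 lower, against 37.9% of 14159 genes (16.3% higher, 21.6% lower). Mdh2 was at 0.99 and no longer called when scaled by total counts. The median of the 8 TCA enzymes was −0.01, against −0.09 for all genes.

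An additive fit over all 6 libraries took state and treatment together, in edgeR's quasi-likelihood test with Benjamini-Hochberg adjustment. Its residual, with 2 degrees of freedom, measures how far the states differed in their regorafenib response, not the spread of repeated cultures. For M1 against M0, 4 of the 9 members passed an adjusted p of 0.05, and 36.7% of 14110 genes passed (18.5% higher, 18.2% lower). Acod1 was higher by 7.85 on the log2 scale (edgeR adjusted p = 0.00229, range over 10 alternatives 1.23e-13 to 0.00956), higher in both pairs of libraries. Idh1 was at −2.48 (edgeR adjusted p = 0.00446, 3.25e-10 to 0.0120), lower in both pairs. Fh1, at −0.70 (edgeR adjusted p = 0.0268, 0.0141 to 0.163), and Idh2, at −0.94 (edgeR adjusted p = 0.0459, 0.00440 to 0.224), were also lower in both pairs, and each kept its call in 6 of 10 alternatives. Fh1 lost its call without the M0 control, the M1 control or either M2 library, with values between −0.54 and −0.71. Idh2 lost its call without the M0 control (−0.50) and without the M1 control (−0.55), with RLE factors (−0.93), and when treatment was left out (−0.99). Mdh2, at 0.92, missed the threshold (edgeR adjusted p = 0.0581, 0.00504 to 0.258), and passed it in 5 of 10 alternatives, among them DESeq2 (0.92) and the fits without the M0 control (1.25), the M1 control (1.41) or the M2 control (0.90). Idh3a, at −0.41, had an edgeR adjusted p of 0.466 (0.0217 to 0.730), and it passed only without the M0 library with regorafenib, at −1.07. Its sign turned without the M0 control (0.31) and without the M1 control (0.18). Sdhb, at 0.47, had an edgeR adjusted p of 0.0882 (0.0250 to 0.356), and it passed only without the M1 control, at 0.68. Cs, at 0.35, and Sdha, at −0.38, passed in none of the 10 alternatives.

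**Figure D2:**
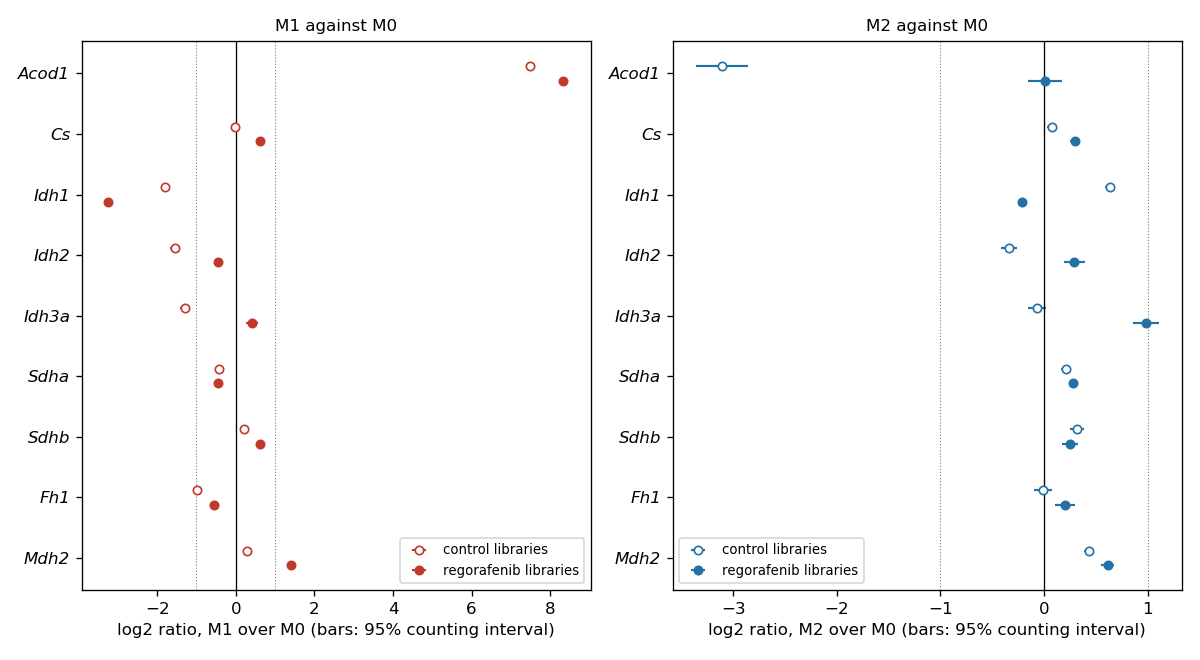
Log2 ratio of M1 over M0 (left) and M2 over M0 (right) for each gene, with open points for the control libraries, filled points for the regorafenib libraries, bars for the 95% counting interval and dotted lines at 2-fold. Acod1 stood at 7.49 and 8.33 in M1, and in M2 it was at −3.10 between controls and at 0.01 between regorafenib libraries.

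Between the M2 and M0 control libraries the TCA enzymes lay within 2-fold, and Acod1 did not. Acod1 was 8.60-fold lower in M2 (log2 ratio −3.10, −3.36 to −2.86), and it was the 1 of 9 members called, against 12.3% of 13830 genes (4.69% higher, 7.61% lower). Idh1 was at 0.63 (0.59 to 0.68), Mdh2 at 0.43 (0.38 to 0.47), Sdhb at 0.32 (0.25 to 0.38) and Sdha at 0.21 (0.17 to 0.26). Idh2 was at −0.34 (−0.41 to −0.26), and the intervals of Idh3a (−0.07) and Fh1 (−0.01) held 0. Cs was at 0.07 (0.03 to 0.11) and slightly below 0 when scaled by total counts. The median of the 8 enzymes was 0.14, against 0.01 for all genes.

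Between the M2 and M0 libraries with regorafenib, Acod1 was at 0.01 (−0.16 to 0.18), a ratio whose sign turned with the scaling. Idh3a lay just inside 2-fold at 0.98 (0.86 to 1.11), and it was called, at 1.01, when the size factors of DESeq2 were used. Mdh2 was at 0.61 (0.55 to 0.67), the other TCA enzymes lay between −0.22 and 0.30, and 0 of 9 members were called, against 9.59% of 13841 genes (4.41% higher, 5.18% lower). In the additive fit for M2 against M0, 0 of 9 members passed in edgeR and 0 in DESeq2, and 0 members had an unadjusted edgeR p under 0.05. Over all genes, 28 of 14110 passed in edgeR (0.198%, of which 0.184% higher and 0.0142% lower) and 412 of 24938 in DESeq2 (1.65%). An unadjusted edgeR p under 0.05 was found for 1309 of the 14110 genes. Acod1 had a fitted difference of −1.38 (edgeR adjusted p = 0.719, range over alternatives 0.0400 to 1). It passed only without the M2 library with regorafenib, at −2.90, and it was −2.38 without the M0 library with regorafenib, −0.44 without the M0 control and −0.19 without the M2 control.

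Regorafenib was compared with control within each state, to ask how the drug changed the state. In M0 the ratios of the genes counted as TCA enzymes ranged from −1.50 (Idh3a) to 1.35 (the cytosolic Idh1). The next highest was Sdha at 0.17. Idh1 was 2.56-fold higher with regorafenib (log2 ratio 1.35, 1.31 to 1.40). Idh3a was 2.82-fold lower (−1.50, −1.61 to −1.38). Idh2 was at −0.88 (−0.97 to −0.79), Acod1 at −0.86 (−1.002 to −0.717), Mdh2 at −0.83 (−0.89 to −0.78) and Cs at −0.51 (−0.56 to −0.47). Fh1 was at −0.32 (−0.41 to −0.22), Sdhb at −0.13 (−0.20 to −0.05) and Sdha at 0.17 (0.12 to 0.21). In all, 2 of 9 members were called, 1 in each direction, against 20.4% of 13964 genes (9.47% higher, 10.9% lower). The median of the 9 was −0.51, against 0.00 for all genes. The M0 libraries also enter the M1 and M2 comparisons with M0 above, so these ratios are not independent of them.

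In M1, regorafenib left the 9 genes nearly where they were. Acod1 was at −0.01 (−0.022 to −0.002), which became 0.03 when scaled by total counts. The ratio was 0.29 (0.24 to 0.33) for Mdh2, 0.27 (0.20 to 0.35) for Sdhb, 0.23 (0.09 to 0.37) for Idh2, 0.21 (0.07 to 0.36) for Idh3a, 0.14 (0.08 to 0.20) for Sdha and 0.12 (0.07 to 0.17) for Cs. The intervals of Fh1 (0.11) and Idh1 (−0.08) held 0. None of the 9 members was called, against 5.22% of 13440 genes (1.76% higher, 3.46% lower), and their median was 0.14, against −0.02 for all genes.

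In M2, Acod1 was 4.78-fold higher with regorafenib (log2 ratio 2.26, 1.99 to 2.53), from 150 to 549 counts, and its level then was that of M0 with regorafenib. It was the 1 of 9 members called, against 11.2% of 13813 genes (6.15% higher, 5.07% lower). Mdh2 was at −0.65 (−0.70 to −0.60), Idh3a at −0.45 (−0.54 to −0.35), Cs at −0.29 (−0.33 to −0.24), Idh2 at −0.25 (−0.34 to −0.16), Sdhb at −0.19 (−0.26 to −0.12) and Fh1 at −0.10 (−0.19 to −0.02). Idh1, at 0.50 (0.47 to 0.54), and Sdha, at 0.24 (0.19 to 0.28), had intervals above 0. The median of the 9 was −0.19, against −0.03 for all genes. Even with regorafenib, the Acod1 level in M2 of 19.6 CPM was far below the 6333 and 6280 CPM of the M1 libraries. Of the marker lists in this comparison, 4 of 6 neutrophil markers had at least 10 counts in a library and 2 were called higher. These were S100a9, from 0 to 11 counts, and Cxcr2, from 6 to 18. Mpo, from 3175 to 3646 counts, was not called, and S100a8 went from 68 to 39, a difference within counting error. The 1 dendritic cell marker past the minimum, Zbtb46, was higher (2.36), from 15 to 59 counts. The part of these markers in the Acod1 ratio was not tested.

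**Figure D3:**
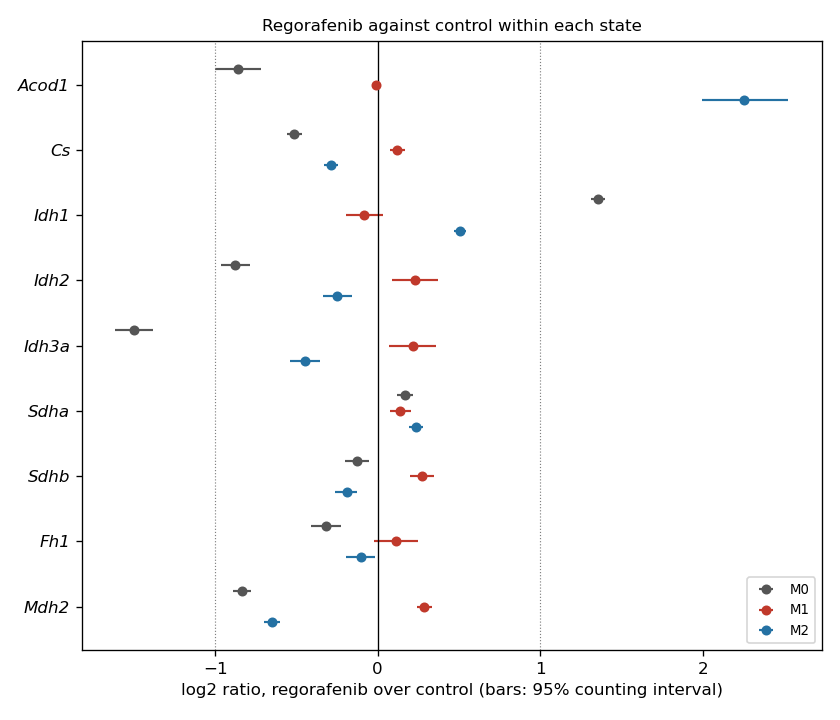
Log2 ratio of regorafenib over control for each gene in M0, M1 and M2, with bars for the 95% counting interval and dotted lines at 2-fold. In M0 Idh1 (1.35) and Idh3a (−1.50) were past 2-fold, in M2 only Acod1 (2.26) was, and the M1 points lay between −0.08 and 0.29.

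Across the 3 states together, edgeR called 0 of 14110 genes for regorafenib, and 0 of the 9 members (0%). At an unadjusted edgeR p under 0.05 there were 1637 of the 14110 genes and 0 members. DESeq2 called 297 of 24938 genes (1.19%) and 0 members. The fitted difference of the members was between −0.56 (Idh3a) and 0.61 (Idh1). Mdh2, at −0.39 (edgeR adjusted p = 0.499, range over alternatives 0.0480 to 1), passed only without the M1 control or without the M1 library with regorafenib, at −0.73 in both.

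Ratios of a pair of genes within 1 library do not depend on the scaling, and they show how the members moved against their partners. Idh3a per kilobase was 0.418 times Idh3b, the β subunit of the same enzyme, in the M0 control and 0.137 times with regorafenib, a log2 change of −1.61 (−1.74 to −1.48). In M1 the ratio was 0.217 and 0.229, and in M2 it was 0.349 and 0.259, a change of −0.43 (−0.54 to −0.32). Against Idh3g, the γ subunit, the Idh3a ratio was 0.566 and 0.176 in M0, 0.308 and 0.354 in M1, then 0.505 and 0.342 in M2. Idh3b itself was at 0.11 and Idh3g at 0.19 with regorafenib in M0, so the α subunit differed where its partners did not pass 2-fold.

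The ratio of Idh1 to Idh2 per kilobase was 2.02 and 9.49 in M0, 1.68 and 1.36 in M1, then 3.96 and 6.68 in M2. With regorafenib it changed by 2.23 (2.13 to 2.33) in M0, by −0.31 (−0.49 to −0.13) in M1 and by 0.75 (0.66 to 0.85) in M2. Idh1 made up 39.1% of the summed level of the 5 isocitrate dehydrogenase genes in the M0 control and 66.5% with regorafenib, 23.9% and 21.4% in M1, then 50.2% and 60.3% in M2. Idh3a made up 8.05% and 1.90% in M0, 6.996% and 7.68% in M1, then 6.35% and 3.94% in M2.

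**Figure D4:**
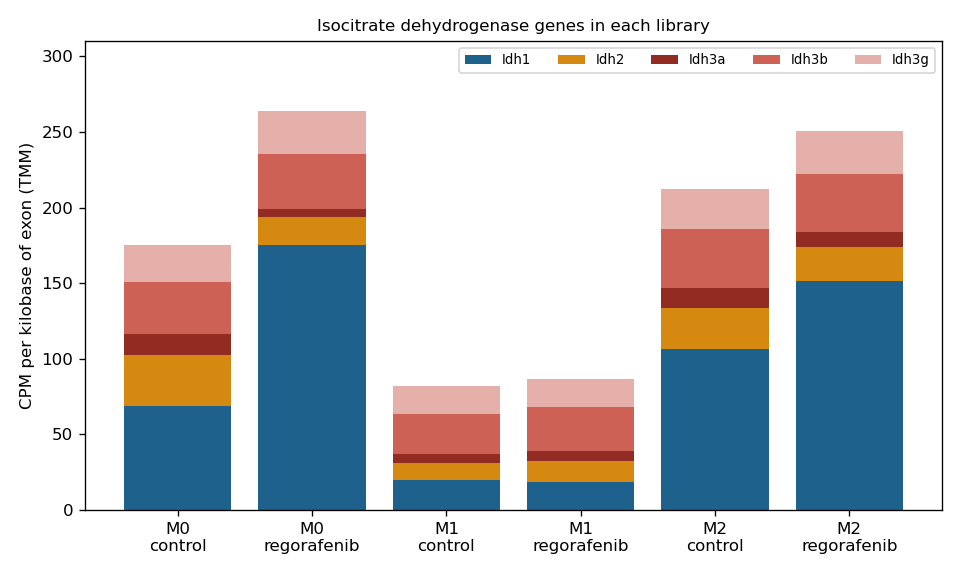
Summed level of the 5 isocitrate dehydrogenase genes in each library, as CPM per kilobase of exon after TMM scaling, stacked by gene, 1 library per bar. The sum was 82.0 and 86.7 in M1 and 175 to 264 elsewhere, and the Idh1 part was the largest in M0 with regorafenib.

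Succinate dehydrogenase subunits also moved apart. Sdha per kilobase was 1.20 and 1.47 times Sdhb in M0, 0.774 and 0.706 times in M1, then 1.12 and 1.51 times in M2. Between the M1 and M0 controls the ratio changed by −0.64 (−0.73 to −0.54). Mdh2 was 0.868 and 0.566 times Mdh1, the cytosolic malate dehydrogenase, in M0, 2.20 and 2.30 times in M1, then 1.13 and 0.714 times in M2. The change from the M0 to the M1 control was 1.34 (1.26 to 1.43), with Mdh1 lower at −1.06 and Mdh2 at 0.28. With regorafenib the ratio of Mdh2 to Mdh1 changed by −0.62 (−0.70 to −0.54) in M0, by −0.67 (−0.74 to −0.60) in M2 and by 0.06 (−0.03 to 0.16) in M1.

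**Figure D5:**
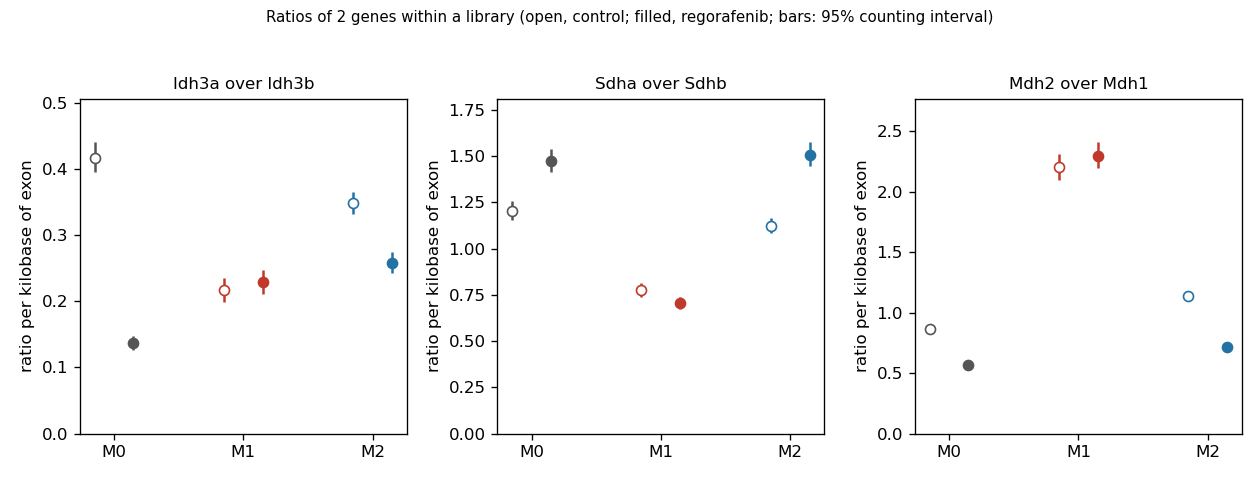
Ratio of the levels per kilobase of exon of 3 pairs of genes within each library, Idh3a over Idh3b, Sdha over Sdhb and Mdh2 over Mdh1, with bars for the 95% counting interval, open points for control and filled points for regorafenib. Idh3a over Idh3b was lowest in M0 with regorafenib (0.137), and Mdh2 over Mdh1 was above 2 in both M1 libraries only.

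The Mdh2 stretch below is shown since Mdh2 was the enzyme of the malate step that stood apart from Mdh1. It is 30 bases of GRCm38.p6, chr5:135778511-135778540, + strand, and the capitals mark TGACGTCA, the cyclic AMP response element (CRE) letters, which begin 127 bases before the RefSeq start but after the Gencode start of the gene:

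Mdh2: ggagagaatcgTGACGTCAggcctcgctcg

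The CRE letters are in 1.79% of all promoter windows and in no other member's window. The window of Sdha held the NRF1 form, GCGCA and GCGC with 1 free base between them, at 3 places, letters that are in 4.60% of windows.

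The rest of the pathway was read from lists of related genes. The 11 other genes of the cycle all passed the minimum, and none was called with regorafenib in any of the 3 states, where the share called over all genes was 20.4% (M0), 5.22% (M1) or 11.2% (M2). Their medians were −0.21, 0.09 and −0.17. In M1 against M0 the additive fit, which called 36.7% of all genes, called 1 of the 11, Suclg2, a β subunit of succinyl-CoA synthetase, which was lower at −0.90 (edgeR adjusted p = 0.0172). None of the 4 genes of the pyruvate dehydrogenase complex, which feeds acetyl-CoA to the cycle, was called in the fits or in any pair of libraries. Over all genes the pairs called between 5.22% and 37.9%, and the fits 36.7% for M1, 0.198% for M2 and 0% for regorafenib, so 4 genes without a call in the fits for M2 and regorafenib are no result about them.

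All 6 kinases and phosphatases that regulate this complex passed the fit for M1 against M0, 2 higher and 4 lower, where 36.7% of all genes passed (18.5% higher, 18.2% lower). Pdk1, an inhibitory kinase, had 1394 and 623 counts in M0, 3094 and 2224 in M1, then 1059 and 435 in M2, and was higher in M1 at 1.90 (edgeR adjusted p = 0.00321), as was Pdk3 at 1.02 (edgeR adjusted p = 0.00926). Lower were the activating phosphatases Pdp1 at −1.53 (edgeR adjusted p = 0.00883) and Pdp2 at −1.67 (edgeR adjusted p = 0.00325), and the kinase Pdk2 at −1.54 (edgeR adjusted p = 0.0318). Pdk4 was also called lower, with 0 counts in both M1 libraries and 2 to 17 elsewhere. With regorafenib in M0, Pdk1 was lower at −1.26 (−1.40 to −1.13) and Pdk2 higher at 1.64 (1.43 to 1.87). Pdk4 was called higher there too, from 2 to 17 counts (2.99, 0.91 to 6.14). In M2 the ratio of Pdk1 was −0.90 and that of Pdk2 was 0.99, both inside 2-fold, and Pdk4 was called from 4 to 10 counts (1.71, −0.09 to 3.83).

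Among 7 genes that feed or drain the cycle, 6 passed the minimum, and the fit for M1 against M0, which called 36.7% of all genes, called 2 higher and 3 lower. Pcx, pyruvate carboxylase, was higher at 1.44 (edgeR adjusted p = 0.0105) and Me2, the mitochondrial malic enzyme, at 0.84 (edgeR adjusted p = 0.0169). Among the lower genes were Pck2 at −1.74 (edgeR adjusted p = 0.00246) and Glud1, glutamate dehydrogenase, at −0.93 (edgeR adjusted p = 0.0172). Of 5 cytosolic counterparts, Me1 was higher at 1.08 (edgeR adjusted p = 0.00927), and Mdh1 at −0.78 (edgeR adjusted p = 0.0181) and Got1 at −0.69 (edgeR adjusted p = 0.0169) were lower. Of these 12 genes, 11 passed the minimum, and none was called with regorafenib in any state, against the 20.4% (M0), 5.22% (M1) or 11.2% (M2) over all genes.

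Of 7 mitochondrial carriers, the fit for M1 against M0 called 2 higher and 1 lower, against the same 36.7% of all genes. The aspartate-glutamate carriers went opposite ways, Slc25a12 higher at 1.05 (edgeR adjusted p = 0.0105) and Slc25a13 lower at −1.52 (edgeR adjusted p = 0.0149), and Mpc1, a subunit of the mitochondrial pyruvate carrier, was higher at 0.96 (edgeR adjusted p = 0.0105). Slc25a13 was also the carrier called with regorafenib in M2, at −1.01 (−1.09 to −0.94), from 4957 to 1880 counts. The 4 assembly factors of succinate dehydrogenase had 0 calls in the fits and in every pair, where the pairs called 5.22% to 37.9% of all genes. Clybl, which acts in the breakdown of itaconate, had 194 and 163 counts in M0, 54 and 69 in M1, then 233 and 252 in M2, and was lower in M1 at −1.15 (edgeR adjusted p = 0.0397). It was the only gene of its list of 3 that passed the minimum. The fits for M2 against M0 and for regorafenib called none of the genes in these 8 lists, but they called 0.198% and 0% of all genes, so this says nothing particular of the lists.

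The genes whose pattern over the 6 libraries was most like that of Acod1 were sought among genes with at least 100 counts in their highest library, by the root mean square difference of log2 CPM after centring each gene. They were Gbp3 (0.53) and Gbp5 (0.60), interferon-inducible guanylate-binding proteins, then F830016B08Rik (0.64), Gm4951 (0.64) and Il1bos (0.69), where the log2 values of Acod1 themselves had a root mean square of 4.20 around their mean. Gbp3 had 377 and 175 counts in M0, 26841 and 27734 in M1, then 56 and 81 in M2. F830016B08Rik and Il1bos had 0 to 2 counts in the M0 and M2 libraries, so that their likeness rests on the M1 libraries alone. Il1bos is an antisense gene, and the strand used in counting is not given in the sources used here. For Idh1 the nearest were Trp53inp1 (0.16), Mtus1 (0.18), Adamts10 (0.19), Snx29 (0.19) and C77080 (0.20), against 1.31 for Idh1 itself. Trp53inp1, a p53 target, had 936 and 2533 counts in M0, 255 and 254 in M1, then 1577 and 1914 in M2. For Idh3a they were Amd1 (0.12), an enzyme of polyamine synthesis, its near copy Amd2 (0.12), Nolc1 (0.13), Gar1 (0.15) and Ppan (0.16), against 0.59 for Idh3a itself. Nolc1, Gar1 and Ppan encode nucleolar proteins, and Nolc1 had 2407 and 1111 counts in M0, 832 and 869 in M1, then 2856 and 1370 in M2. Reads of Amd1 and Amd2 may be split between the copies, so their values are uncertain. No member shared a 100-base word with another gene. Fh1 overlaps Kmo on the opposite strand without an overlap of exons, and Kmo had 2 to 59 counts.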

How the data were processed

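RNA of 6 BMDM libraries, 1 per condition, was sequenced as 100-base reads after a stranded library kit. The values the authors deposited are raw counts, whole numbers for each gene, made by trimming with cutadapt 2.4 and mapping and counting with STAR 2.7.2a on GRCm38, after FastQC 0.11.8. The strand column taken is not given in the sources used here. Gene names, positions and exon lengths came from Gencode M21. Of 54446 IDs, 53229 matched with their version number, 1180 without it, and 37 had no name. Promoter windows came from RefSeq (GRCm38.p6).

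Counts were scaled with TMM (edgeR 4.0.16, R 4.3.3). Each log2 ratio has a conditional exact binomial 95% interval. A count of 0 was replaced by 0.5, and a gene was called at 2-fold or more if 1 of its libraries had at least 10 counts. Intervals cover counting error only. The study called genes with NOISeq on simulated replicates, which was not used here. The additive fit (~ state + treatment) used glmQLFTest on genes kept by filterByExpr, with Benjamini-Hochberg adjustment over all genes. DESeq2 1.42.0 was an alternative. The scripts were tested on simulated data. Python 3.11.15 with numpy 2.4.6, scipy 1.17.1 and pandas 2.3.3 was used for ratios.

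The genes named are the 9 members, list genes that the fits called or that had the largest called ratios (at most 4 per list and comparison), the 5 genes of nearest pattern for Acod1, Idh1 and Idh3a, and markers. Values of some list genes are not reported here. The members and lists were chosen with earlier results of these data known. The M1 and M2 comparisons share the M0 libraries.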

Additional observations from a re-analysis of the deposited data

Results flagged for a closer look

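Counted over single libraries, 6 of the 9 genes had regorafenib ratios on opposite sides of 0 in a pair of states, with counting intervals that excluded 0 (66.7%). So did 24.3% of the 12554 genes past the minimum count in all 3 states, and 29.9% of the 9093 genes with at least 100 counts in every library. Counting intervals of abundant genes are narrow. With 1 library per condition the difference between the states was not tested against replicate error. For Acod1 the difference of the log2 ratios, M2 minus M0, was 3.11 (counting interval 2.82 to 3.41), from −0.86 in M0 to 2.26 in M2. Taking M1 minus M0, the difference was 0.63 for Cs, 1.10 for Idh2, 1.71 for Idh3a (1.53 to 1.90) and 1.12 for Mdh2. For Sdhb, M2 minus M1, it was −0.47.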

How the results depend on the processing

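There was 1 library per condition, so no fit with a replicate block could be made. The additive fit itself compares regorafenib with control within states, and states within treatments, and the fits with state alone or treatment alone drop that pairing. Of the values of single genes, 456 kept their call or stayed within the counting interval, 37 moved further, and in the additive fits 10 gained and 8 lost a call. The sign turned in 20 fitted values, none of them called with either sign. With treatment alone in the fit, without state, the log2 difference for regorafenib was −0.0067 for Acod1 and 0.020 for Sdhb. Leaving out each library in turn, the log2 difference for M1 against M0 ran from −1.07 to 0.31 for Idh3a. For M2 against M0 it ran from −0.019 to 0.42 for Cs, −0.34 to 0.79 for Idh1, −0.44 to 0.43 for Idh2, −0.22 to 1.17 for Idh3a and −0.056 to 0.27 for Fh1. For regorafenib it ran from −0.43 to 1.09 for Acod1, −0.55 to 0.0041 for Idh2, −0.14 to 0.083 for Sdhb and −0.20 to 0.020 for Fh1. Among the 2-fold calls, scaling by total counts added Fh1 for M1 against M0 in control (−1.42) and dropped Mdh2 with regorafenib (0.99), and DESeq2 size factors added Idh3a for M2 against M0 with regorafenib (1.01). With a 1.5-fold call the number of members called was 5 for regorafenib in M0 (39.2% of all genes), 2 for regorafenib in M2 (25.3%), 5 for M1 against M0 in control (54.1%), 2 for M2 against M0 in control (23.7%), 5 for M1 against M0 with regorafenib (55.5%) and 2 for M2 against M0 with regorafenib (20.8%). With DESeq2 size factors it was 1 for M2 against M0 with regorafenib (9.49%). Leaving out 1 library at a time gave 3 to 5 members for M1 against M0 (27.9% to 34.8% of all genes), 0 to 1 for M2 against M0 (1 without the M2 library with regorafenib, with 0.529% of all genes) and 0 to 1 for regorafenib (1 without the M1 control, with 4.97%, or without the M1 library with regorafenib, with 5.51%). These fits leave a condition with no library, and a state with a single library is assumed to vary like the others. Why these counts moved was not tested, beyond the wider call at 1.5-fold.

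Over all genes, the fit for M2 against M0 called 28 genes, 412 with DESeq2, 408 without a filter, 0 with state alone and 77 to 294 without 1 library. For regorafenib it called 0, 297, 333, 0 with treatment alone and 0 to 814. With the M0 and M2 libraries only, chosen after seeing the data, it called 386 genes and 0 members. Scaling by total counts moved the median of all genes from −0.05 to −0.49 for M1 against M0 in control, with 30.3% of calls higher in place of 46.8%, and from −0.09 to −0.51 with regorafenib, with 27.7% in place of 43.1%. The number of genes called at 2-fold went from 2851 to 6688 (regorafenib in M0), from 701 to 4139 (M1) and from 1551 to 5275 (M2) without a minimum count, and to 1495, 154 and 565 with 1 CPM added. A 1.5-fold call gave 5474, 1796 and 3490. Without a minimum count the calls went from 5263 to 9577 (M1 against M0, control), from 5367 to 9484 (M1 against M0, regorafenib), from 1700 to 5387 (M2 against M0, control) and from 1328 to 4953 (M2 against M0, regorafenib). For M2 against M0 they were 780 and 451 with 1 CPM added, and 3272 and 2876 at 1.5-fold.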
